A study of Mus musculus with 20 samples.

Results

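Plasmacytoid dendritic cells (pDC) grown from amplified mouse bone marrow progenitors were set against the common dendritic cell progenitor (CDP), the cell that gives rise to dendritic cells, after its own amplification in culture. The comparison rests on 2 pDC arrays and 2 CDP arrays, 4 of the 20 Affymetrix mouse genome arrays of the series, all C57BL/6 and all labelled with the one-cycle kit from 1 µg of RNA. Every array group named here comes from C57BL/6 bone marrow with no transgene or deletion in the labels. Conventional dendritic cells (cDC) differentiated from the same kind of amplified progenitor, and multipotent progenitors (MPP) amplified in culture, each gave 2 arrays from the same kit and amount of RNA. CDP isolated directly from bone marrow (in vivo CDP) gave 2 arrays, but from 50 ng of RNA, another extraction kit and another labelling kit, so culture and labelling cannot be told apart where they are set beside cultured CDP. The labels do not give the number of mice or cultures behind an array. Nothing in them says that the 2 arrays of a group came from separate cultures or mice, and the p-values below measure only the spread between these arrays.

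pDC are the dendritic cells that make large amounts of type I interferon when the endosomal receptors TLR7 and TLR9 meet viral RNA or DNA. The E protein Tcf4 (E2-2) sets up and maintains their programme, and the ID proteins, above all Id2, oppose E proteins and favour conventional dendritic cells. Mouse pDC are recognised by Siglec-H and BST2 on the surface, and they share several genes with early lymphocytes, such as the template-independent DNA polymerase Dntt.

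Levels are the deposited GCRMA values on a log2 scale, in which 1 unit is a factor of 2 and 2.25 is the lowest value on each of the 10 arrays used here. Pairs of values are given as array 1 and array 2 of a group. A level under 5 was treated as low, since most probe sets of these arrays lie there, and a gene was tested when it lay above 5 on at least 2 of the 8 one-cycle arrays, which held for 8900 of 18193 genes. Differences are pDC minus CDP from limma, over 2 arrays each. The SE is limma's and rests on the spread within all groups of the 8 one-cycle arrays, so the MPP and cDC arrays enter it. The p-values are two-sided and Benjamini-Hochberg adjusted over the 8900 genes. A gene was called, and is said to rise or fall, at an adjusted p under 0.05. Where the lower group had an array under 5, the fold uses 5 in place of that value and is a bound, written as "at least", while the p-value tests the full difference in deposited values. A gene above 5 in 1 group alone passes the filter through that group, so counts and medians over tested members describe the lists and test nothing, and 6 called list members could not be tested with 1 pDC array left out. Of the 396 called list members 313 kept their call without a filter on low values, 351 in a fit of the 4 pDC and CDP arrays alone and 350 with the mean over a gene's probe sets, where 374 were tested. Each gene is given by 1 probe set, and where others departed widely from it their range is given. Values at the lowest level add no spread to that test, which can lower the p-value.

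pDC and CDP differed widely. Of the 8900 genes, 1930 (21.7%) were higher in pDC and 2809 (31.6%) were lower, together 4739 (53.2%), and 1362 (15.3%) and 2000 (22.5%) genes were called with a difference of 2-fold or more. At an unadjusted p under 0.05 there were 5270 genes (59.2%). The pDC and CDP arrays of 6945 genes (78.0%) did not overlap. The median difference over all 8900 genes was -0.14 log2, and -0.03 log2 after quantile normalization of the arrays, so small differences of either sign depend on the scaling. Against cDC, a comparison that shares the pDC arrays, 1131 genes (12.7%) were higher and 1142 (12.8%) lower in pDC. Without pDC array 1 these numbers were 558 and 704, without pDC array 2 they were 664 and 936, without cDC array 1 they were 706 and 637, and without cDC array 2 they were 752 and 722. The arrays of a group agreed closely over all genes tested, with a correlation between array 1 and array 2 of 0.974 in pDC and 0.972 in CDP and a pooled replicate SD of 0.41 log2 in both. The 3′ minus 5′ signal of β-actin, a measure of RNA length, was 0.84 and 0.94 log2 in pDC against 1.23 and 2.11 in CDP, and its part in the differences was not tested.

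Within the pDC group the arrays differed most in 3 gene lists. Genes of monocytes and macrophages lay higher on pDC array 2 by at least 1 log2 unit in 12 of 17 tested members, with a median difference of 3.46. Over all genes tested, 272 of 8900 (3.06%) were higher on pDC array 2 by that much, and 205 (2.3%) on array 1. C1qb, a complement component of macrophages, had 4.30 on pDC array 1 and 9.45 on array 2, and Adgre1, which encodes the macrophage marker F4/80, had 4.32 and 8.86. Genes of the interferon response lay the other way, higher on pDC array 1 in 18 of 27 members with a median of -2.45 for array 2 minus array 1. The cDC arrays showed the same order, with cDC array 1 higher in 20 of 27. Glycolysis genes were higher on pDC array 2 in 12 of 19, with a median difference of 1.10. Between the CDP arrays, array 1 was higher by at least 1 log2 unit in 11 of 16 MHC class II genes, and array 2 in 12 of 25 sterol synthesis genes. Leaving out any 1 of the 4 arrays lowered the number of called genes. Counts without an array are given for some lists only. Other counts changed as well, among them those of the lymphoid-type, lysosomal, cytokine receptor and chemokine receptor lists. The part of these array differences in the other results was not tested.

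**Figure D1:**
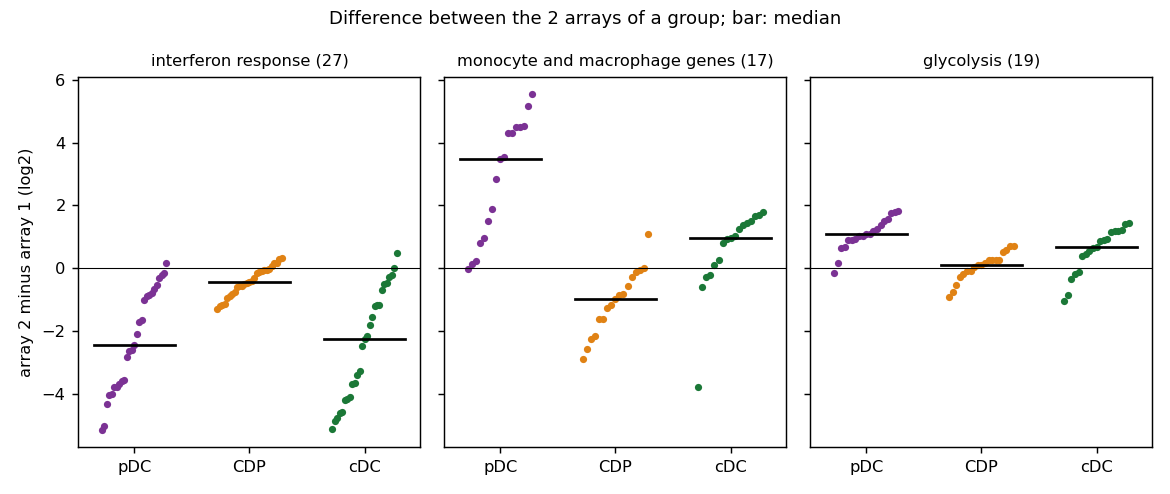
Array 2 minus array 1 (log2) for each tested member of the interferon response, the monocyte and macrophage genes and glycolysis, in pDC, CDP and cDC; the bar is the median. In pDC the medians are -2.45, 3.46 and 1.10.

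A narrower set of genes was low in one cell and high in the other. Genes called higher with both pDC arrays at or above 7 and both CDP arrays under 5 are termed gained, and numbered 96 of 8900 (1.08%). Genes called lower with both CDP arrays at or above 7 and both pDC arrays under 5 are termed lost, and numbered 111 (1.25%). Fold differences were at least 4.38 to at least 435 among gained genes and at least 4.09 to at least 311 among lost genes. More than 1 probe set of a gene lay above 5 for 28 gained and 40 lost genes, and in every one of these all such probe sets had the same sign. Without CDP array 1 the gained genes numbered 149.

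The rule for gained and lost genes set no level on MPP, cDC or in vivo CDP arrays, although the MPP and cDC arrays entered the filter and limma's spread and all 20 arrays the choice of probe set. Gained genes were chosen with both CDP arrays under 5, which held for 6.38% of all genes tested. The shares over all genes are thus no matched comparison, and the shares below describe the genes and test nothing. Both MPP arrays were under 5 for 89 of the 96 gained genes (92.7%) and at or above 7 for 0, against 7.29% and 68.0% of all genes tested. Of the lost genes 88 of 111 (79.3%) had both MPP arrays at or above 7. In cDC, 34 gained genes (35.4%) had both arrays under 5 and 28 (29.2%) had both at or above 7, against 7.39% and 65.3% of all genes tested. Of the lost genes 47 (42.3%) were under 5 on both cDC arrays as well and 22 (19.8%) were at or above 7 on both. In vivo CDP had both arrays under 5 for 50 gained genes (52.1%) and 23 lost genes (20.7%), against 7.73% of all genes tested. Both in vivo CDP arrays were at or above 7 for 14 gained genes (14.6%) and 47 lost genes (42.3%), against 71.6% of all genes tested.

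**Figure D2:**
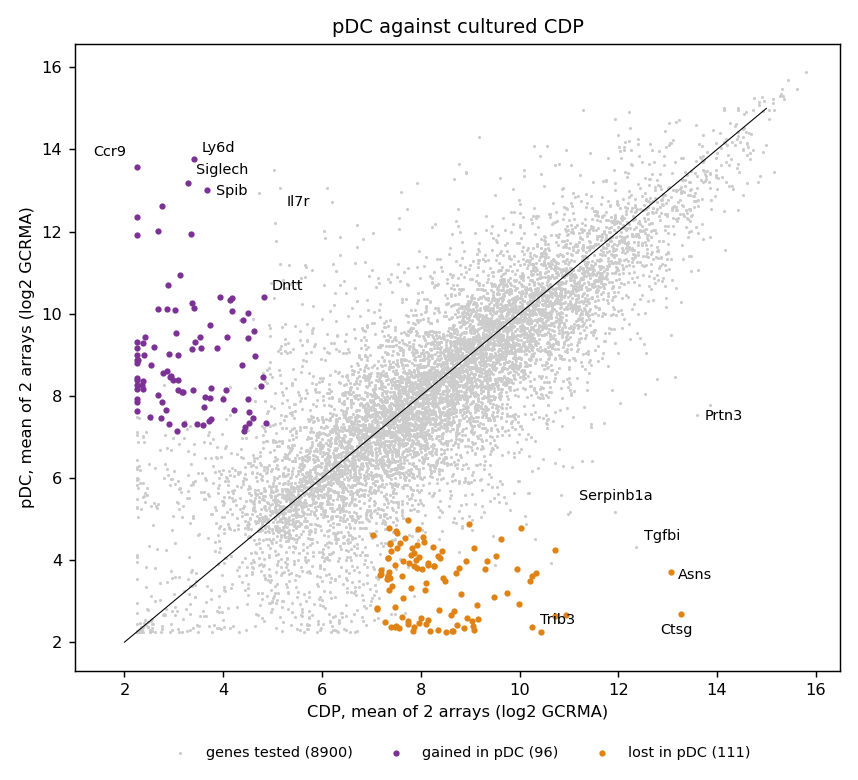
Mean log2 level of the 2 pDC arrays (vertical axis) against that of the 2 CDP arrays (horizontal axis) for the 8900 genes tested, with the 96 gained genes in purple and the 111 lost genes in orange. Ly6d, Ccr9, Siglech and Spib sit above 12 in pDC at CDP means under 5, and Ctsg and Asns sit above 12 in CDP at pDC means under 5.

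The 10 largest increases, by the difference after values under 5 were raised to 5, were led by surface genes. Ly6d, a surface marker of lymphoid-primed progenitors and pDC, had 14.06 and 13.46 in pDC and 3.99 and 2.83 in CDP (at least 435-fold higher, adjusted p = 1.5e-05). Ccr9, the receptor for the gut and thymus chemokine CCL25, had 13.96 and 13.21 in pDC and 2.25 and 2.25 in CDP (at least 384-fold higher). Ddr1, a collagen receptor with tyrosine kinase activity, had 13.59 and 13.41 in pDC and 5.4 and 4.65 in CDP (at least 315-fold higher), and its 5 probe sets above 5 gave differences of 0.82 to 8.47 log2. As the choice of these 10 genes required, no pDC array overlapped a CDP array. Siglech, Spib, Il7r and Klra17 belong to the same 10 and are described with their groups. Tbc1d8, of the TBC domain family that acts on Rab proteins, had 12.92 and 12.96 in pDC and 5.46 and 3.97 in CDP (at least 209.7-fold higher). D13Ertd608e had 12.98 and 11.72 in pDC and 2.25 and 2.25 in CDP (at least 163-fold higher), and Eldr had 12.31 and 12.11 in pDC and 5.21 and 4.89 in CDP (at least 138-fold higher).

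Gained genes that were under 5 on both cDC arrays included enzymes and signalling proteins as well as lymphoid genes. Chdh, the mitochondrial choline dehydrogenase, had 10.34 and 9.92 in pDC and 3.59 and 3.21 in CDP, with 2.89 and 2.76 in cDC (pDC against CDP at least 35.1-fold higher). It was not low in the other progenitors, with 6.18 and 7.06 in MPP. In vivo CDP had 10.61 and 10.87 for Chdh, above both pDC arrays. Ptprf, a receptor tyrosine phosphatase, had 9.33 and 9.71 in pDC and 2.77 and 3.33 in CDP (at least 23-fold higher), and Hs3st1, a heparan sulfate sulfotransferase, had 9.50 and 9.34 in pDC and 3.99 and 3.08 in CDP (at least 21.4-fold higher). Wfs1, a membrane protein of the endoplasmic reticulum, had 9.60 and 9.22 in pDC and 4.51 and 4.51 in CDP (at least 21.2-fold higher). Prkca, the protein kinase C alpha, had 8.87 and 9.15 in pDC and 2.51 and 2.29 in CDP (at least 16.1-fold higher). The choice of these 5 genes required both pDC arrays at or above 7 and both cDC arrays under 5. A higher level in pDC than in cDC was therefore fixed in advance, and its size is given as description only. As pDC minus cDC it was 7.31 log2 for Chdh, 5.52 log2 for Ptprf, 6.41 log2 for Hs3st1, 4.61 log2 for Wfs1 and 6.17 log2 for Prkca. Dntt, Fcrla and Sh3bgr complete the 8 largest and are given below.

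**Figure D3:**
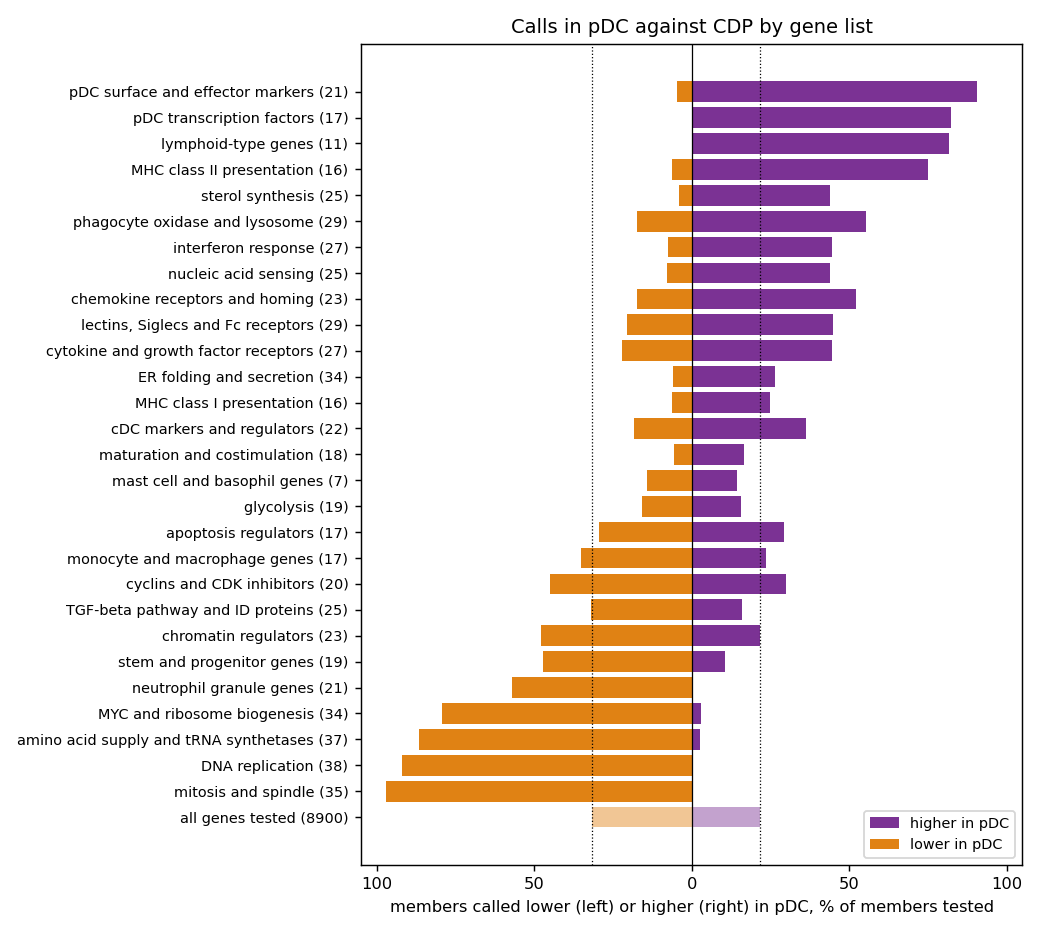
Share of tested members of each gene list called lower (left, orange) or higher (right, purple) in pDC than in CDP, in percent, for lists with at least 7 members tested; the number tested is in brackets. Dotted lines mark the share over all genes tested, 31.6% lower and 21.7% higher.

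Most transcription factors known from pDC were higher in pDC. Of 17 tested members of 19 measured, 14 were called higher and 0 lower, with a median difference of 2.1 log2 against -0.14 over all genes tested. Of the same members 12 were also higher than in cDC and 0 lower. Tcf4, the E protein on which pDC depend, was already high in CDP, with 14.39 and 14.30 in pDC and 11.97 and 12.01 in CDP, and rose by 2.36 ± 0.18 log2 (SE, adjusted p = 0.00012), 5.14-fold. Its 6 probe sets above 5 gave differences of 0.04 to 3.65 log2. Spib, an ETS factor of pDC and B cells, had 12.98 and 13.05 in pDC and 4.66 and 2.70 in CDP and rose at least 259-fold (adjusted p = 4.8e-05). In cDC, Spib had 10.17 and 9.68, below both pDC arrays and above both CDP arrays. Irf8, which dendritic cells need for their development, had 14.88 and 15.03 in pDC and 11.11 and 11.47 in CDP, a difference of 3.67 ± 0.27 log2 (SE, adjusted p = 9.7e-05). In vivo CDP stood at 14.50 and 14.45 for Irf8, near the pDC level and above cultured CDP.

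Irf7, which switches on type I interferon genes, had 9.88 and 8.10 in pDC and 3.27 and 2.89 in CDP and was at least 15.9-fold higher (adjusted p = 0.0051), a call that ended without a filter on low values (adjusted p = 0.058). pDC array 1 was the higher, as for most interferon response genes, and in cDC Irf7 had 9.09 and 5.18. Bcl11a, a zinc finger protein required for pDC, had 12.37 and 12.29 in pDC and 10.34 and 10.33 in CDP, and Zeb2, a repressor that acts in pDC and monocyte development, had 11.06 and 11.49 in pDC and 8.84 and 8.60 in CDP. Their differences were 2.00 ± 0.17 log2 (SE, adjusted p = 0.00017) and 2.56 ± 0.34 log2 (SE, adjusted p = 0.00093), and the 4 probe sets of Zeb2 gave 0.40 to 2.56 log2. Ets1, an ETS factor better known from lymphocytes, had 7.87 and 8.67 in pDC and 2.26 and 2.46 in CDP (at least 9.66-fold higher, adjusted p = 0.00021), and 2.29 and 2.47 in cDC. Tcf12, another E protein, rose by 1.68 ± 0.27 log2 (SE, adjusted p = 0.0022), and Xbp1, which expands the secretory apparatus, rose by 1.48 ± 0.23 log2 (SE, adjusted p = 0.0017). Creb3l2 and Foxo1 were 4.42-fold and 5.29-fold higher, and Stat3, Cbfa2t3 and Ikzf1 were 4.29-fold, 2.5-fold and 1.85-fold higher. The call for Ikzf1 ended without pDC array 2 or CDP array 2.

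Mef2c, Runx3 and the E protein Tcf3 did not pass, with differences of 0.22 ± 0.20 log2 (SE, adjusted p = 0.38), 0.24 ± 0.17 log2 (SE, adjusted p = 0.26) and -0.25 ± 0.37 log2 (SE, adjusted p = 0.6). Ikzf3 and Pou2f2 were measured but lay below the filter. Runx2 was not analysed here.

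The opposing ID proteins gave mixed values. Id1 had 2.81 and 3.19 in pDC and 7.44 and 6.54 in CDP (at least 3.98-fold lower, adjusted p = 0.00012). Id2, which favours cDC, had 11.21 and 12.14 in pDC and 13.64 and 12.95 in CDP and fell by 1.62 ± 0.39 log2 (SE, adjusted p = 0.011), with 15.23 and 15.30 in cDC. Another Id2 probe set had 7.84 and 8.93 in pDC and 10.36 and 8.64 in CDP, a difference of -1.12, and one more, with 3 of 4 values under 5, had a difference of 1.20. The Id2 call ended without pDC array 1 or CDP array 1, without a filter on low values and with the mean over probe sets. Id3 had 8.38 and 8.91 in pDC and 10.47 and 9.0 in CDP, and did not pass (adjusted p = 0.09), and it had 3.57 and 4.13 in cDC. As pDC minus cDC, the difference was 4.79 log2 (adjusted p = 0.00054) for Id3 and -3.59 log2 (adjusted p = 0.00081) for Id2.

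**Figure D4:**
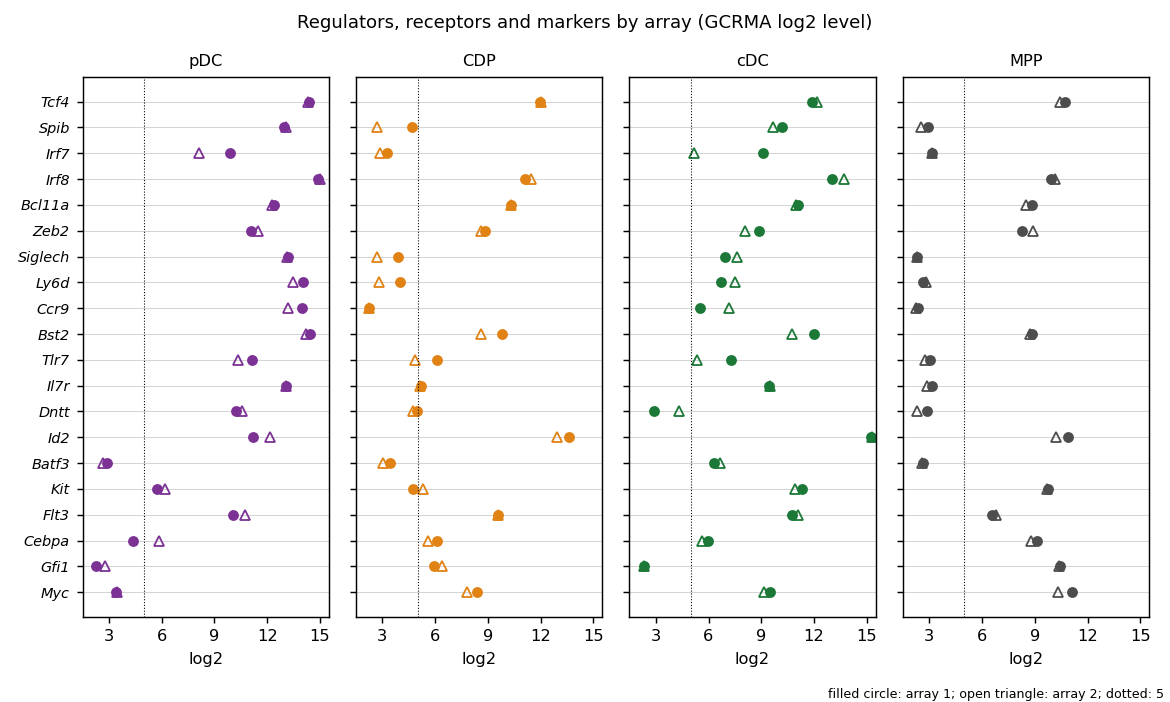
GCRMA log2 level of 20 regulators, receptors and markers on each array of pDC, CDP, cDC and MPP (filled circle array 1, open triangle array 2, dotted line at 5). Siglech, Ly6d, Ccr9 and Spib lie under 5 on both CDP arrays and above 12 on both pDC arrays, whereas Tcf4, Bcl11a and Irf8 lie above 10 in both groups.

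Nearly all tested surface and effector markers of pDC rose. Of 21 tested members 19 were higher and 1 lower, with a median difference of 5.50 log2, and 18 were higher than in cDC. Of 25 measured members 13 were under 5 on both CDP arrays, and such members can pass the filter through the pDC arrays. The counts therefore describe the arrays and do not check their label. Siglech, the sialic acid-binding receptor that defines mouse pDC, had 13.19 and 13.15 in pDC and 3.91 and 2.68 in CDP (at least 289-fold higher, adjusted p = 1.3e-05). In cDC Siglech had 6.94 and 7.62, and pDC minus cDC was 5.89 log2 (adjusted p = 0.00012). Bst2, a restriction factor for enveloped viruses that pDC carry on the surface, had 14.41 and 14.21 in pDC and 9.78 and 8.59 in CDP (34.8-fold higher). Klra17 (Ly49Q), an inhibitory receptor for MHC class I of pDC, had 12.85 and 12.39 in pDC and 3.03 and 2.48 in CDP (at least 196-fold higher), and 11.62 and 11.20 in cDC. Klra17 belongs to a family of near-identical genes, and its probe set may pick up a relative.

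Several of these markers were at or near the lowest value on both CDP arrays. Havcr1 (TIM-1), a phosphatidylserine receptor, had 12.16 and 11.67 in pDC and 2.26 and 2.26 in CDP (at least 121-fold higher). Upb1, an enzyme of pyrimidine breakdown, had 12.19 and 11.84 in pDC and 2.87 and 2.48 in CDP (at least 129-fold higher), but 8.96 and 9.58 in in vivo CDP. Pacsin1, an endocytosis adaptor, had 9.28 and 8.74 in pDC and 2.74 and 3.04 in CDP (at least 16.1-fold higher). Fcrla, an Fc receptor-like protein of the endoplasmic reticulum in B cells, had 10.12 and 8.75 in pDC and 2.38 and 2.45 in CDP (at least 21.6-fold higher), and Sh3bgr had 9.94 and 8.67 in pDC and 2.25 and 2.25 in CDP (at least 19.8-fold higher). The pDC and CDP arrays of these genes were far apart, and pDC array 1 was the higher in each. Other markers rose that were already above 5 in CDP: Atp1b1, a sodium pump subunit, was 124-fold higher, Nucb2, a calcium-binding secretory protein, 23.1-fold higher, Lair1, an inhibitory collagen receptor, 45.3-fold higher, and Ptprs, a receptor phosphatase that restrains pDC, 9.93-fold higher. Rnase6, P2ry14, Tspan13 and Ptprc (CD45) were 38.4-fold, 5.97-fold, 4.09-fold and 2.13-fold higher.

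A few markers departed from the rest. Cox6a2, a subunit of cytochrome oxidase found in heart, muscle and pDC, had 12.21 and 11.98 in pDC and 12.24 and 10.95 in CDP and did not pass (adjusted p = 0.53), but stood at 4.62 and 5.09 in cDC. Klk1, a serine protease, was called lower on the probe set used (3.77 and 3.99 in pDC and 4.82 and 5.37 in CDP), but its direction depends on the probe set. Another probe set of Klk1 had 9.75 and 7.86 in pDC and 2.25 and 2.25 in CDP, and one more had 9.76 and 8.02 in pDC and 2.33 and 2.31 in CDP. Lag3, Cd4, Cd8a and Tlr9 lay below the filter. Lag3 had 3.60 and 4.16 in pDC and 2.25 and 2.25 in CDP, and Cd4 had 5.68 and 2.25 in pDC and 2.25 and 2.25 in CDP.

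Several genes of nucleic acid sensing rose. Of 25 tested members 11 were higher and 2 lower (44% and 8%, against 21.7% and 31.6% of all genes tested), with a median of 0.46 log2. Tlr7, the endosomal receptor for single-stranded RNA, had 11.15 and 10.33 in pDC and 6.13 and 4.85 in CDP, at least 36-fold higher (adjusted p = 0.0009), and 7.29 and 5.33 in cDC. Tlr9, the receptor for DNA, had 4.29 and 3.63 in pDC and 3.61 and 3.60 in CDP and lay below the filter, so no level above 5 was measured for it in either cell. Unc93b1, which carries these receptors to endosomes, had 10.20 and 10.30 in pDC and 8.02 and 7.85 in CDP and rose by 2.32 ± 0.21 log2 (SE, adjusted p = 0.0002). Pld4, an endolysosomal nuclease, and Slc15a4, a lysosomal transporter needed for their signalling, were 10.4-fold and 3.47-fold higher. The chaperone Cnpy3, Irf5 and the kinase Irak2 were 2.18-fold, 2.03-fold and at least 2.98-fold higher.

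Among the other sensors, Cgas, which senses DNA in the cytosol, had 6.67 and 6.02 in pDC and 8.54 and 8.95 in CDP and was 5.28-fold lower (adjusted p = 0.0018). Tlr13, an endosomal receptor for bacterial RNA, had 3.39 and 5.23 in pDC and 7.98 and 7.05 in CDP (at least 5.28-fold lower). Aim2, a DNA sensor of the inflammasome, rose by 1.23 ± 0.22 log2 (SE, adjusted p = 0.0031). Ifih1 (MDA5) had 10.11 and 6.57 in pDC and 9.01 and 8.43 in CDP, with the pDC arrays on either side of both CDP arrays. The adaptors Myd88, Mavs and Sting1 and the kinases Tbk1 and Irak1 did not pass, with differences of 0.12, -0.48, -0.03, 0.46 and 0.10 log2. Irf3 rose by 0.53 ± 0.17 log2 (SE, adjusted p = 0.031), a call that ended when any 1 of the 4 arrays was left out, and Dhx36 was 2.13-fold higher, a call that ended without pDC array 2 or CDP array 2 and had other probe sets of the opposite sign (-0.85 to 1.09 log2). One probe set of Irf3 had a difference of 0.01. Tlr3, which senses double-stranded RNA, was at 2.25 and 3.17 in pDC and 2.25 and 2.25 in CDP, against 9.95 and 10.83 in cDC.

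Several genes of the interferon response were higher in pDC, with large gaps between the pDC arrays. Interferon binds the receptor chains Ifnar1 and Ifnar2, and the complex of Stat2 and Irf9 then binds an element in the promoters of its target genes. These genes were high in cDC too: as pDC minus cDC the median was -0.39 log2, with 4 of 27 tested members higher and 2 lower. Of 30 measured members 14 were under 5 on both CDP arrays and 0 on both cDC arrays. Against CDP 12 of the 27 were higher and 2 lower (44.4% and 7.41%, against 21.7% and 31.6% of all genes tested), with a median of 2.38 log2. The numbers were 9 and 2 without pDC array 1, 17 and 1 without pDC array 2, and 11 and 0 without CDP array 1. Without CDP array 2 they were 9 and 0.

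The promoters of Bst2 and Stat2 are shown because both genes rose and both windows hold the interferon-stimulated response element, here GAAA, any 2 bases and GAAA again. They are the 250 bases before the RefSeq start site (GRCm38.p6), of Bst2 at chr8:71537473-71537722 (minus strand) and of Stat2 at chr10:128270248-128270497 (plus strand), with the element on either strand in capitals.
Bst2: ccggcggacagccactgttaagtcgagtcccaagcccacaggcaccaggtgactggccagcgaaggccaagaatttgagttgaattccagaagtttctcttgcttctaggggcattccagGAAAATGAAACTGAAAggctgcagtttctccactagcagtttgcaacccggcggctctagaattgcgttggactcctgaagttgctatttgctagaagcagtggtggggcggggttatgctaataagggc
Stat2: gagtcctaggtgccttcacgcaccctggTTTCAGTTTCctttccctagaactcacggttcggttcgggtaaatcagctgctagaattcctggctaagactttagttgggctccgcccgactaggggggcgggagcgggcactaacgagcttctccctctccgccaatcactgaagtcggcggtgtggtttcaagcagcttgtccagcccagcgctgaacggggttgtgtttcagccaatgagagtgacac
The element lay 222 to 213 bases before the start of Stat2, and 2 overlapping copies lay 130 to 121 and 124 to 115 bases before that of Bst2. Searched on both strands of a window from 250 bases before to 50 after the start, it occurred in 13 of the 25 measured list members that have a promoter in the RefSeq table (52.0%), against 3.99% of all 27025 genes. Of these 13, Bst2, Stat2 and Trim30a rose and Gbp2 and Ifitm3 fell, while Eif2ak2, Ifih1, Ifit3, Oas1a and Rsad2 did not pass and Cxcl10, Ifit1 and Oas3 lay below the filter. A match in the letters is not a binding site, and the window says nothing of the factor.

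Ifnar1 had 11.37 and 11.52 in pDC and 8.64 and 8.51 in CDP, 7.31-fold higher (adjusted p = 0.00012). Ifnar2 was 1.85-fold higher, a call that ended without pDC array 1 or CDP array 2. Stat2 had 8.17 and 7.14 in pDC and 2.69 and 3.0 in CDP (at least 6.29-fold higher), Irf9 had 9.91 and 9.11 in pDC and 6.41 and 5.81 in CDP (10.6-fold higher), and Irf1, a factor induced by interferons, was 5.2-fold higher. The pDC arrays of these genes lay within about 1 log2 unit of each other and above both CDP arrays.

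Several effector genes differed by more than 2 log2 units between the pDC arrays. Mx1, a GTPase that blocks influenza virus, had 11.57 and 9.12 in pDC and 4.71 and 3.57 in CDP (at least 40.6-fold higher), and Usp18, which turns off the interferon receptor, had 12.12 and 8.13 in pDC and 3.12 and 2.25 in CDP (at least 34.9-fold higher). Both pDC arrays were above both CDP arrays for each. In cDC, Mx1 had 11.55 and 9.75 and Usp18 had 12.05 and 8.39. Oasl2 had 10.85 and 5.70 in pDC and 3.04 and 2.56 in CDP, and its call ended without pDC array 1, CDP array 1 or CDP array 2. Rsad2 (viperin) had 10.03 and 5.03 in pDC and 4.34 and 3.93 in CDP and did not pass (adjusted p = 0.16), nor did Isg20 with 9.42 and 5.10 in pDC and 3.77 and 2.59 in CDP. In these genes pDC array 2 was nearer to the CDP arrays than to pDC array 1. Trim30a was 10.7-fold higher, and Samhd1, which depletes the nucleotide pool against viruses, was 3.47-fold higher. Ifitm3, which blocks viral entry, had 11.86 and 9.77 in pDC and 12.95 and 12.65 in CDP and was 3.94-fold lower, a call that ended when either CDP array was left out. Gbp2, a guanylate-binding protein, had 4.33 and 3.67 in pDC and 6.71 and 6.26 in CDP, and its call ended when pDC array 2, CDP array 1 or CDP array 2 was left out. The rise of Ifi35 was 1.85 ± 0.56 log2 (SE, adjusted p = 0.029) and ended when pDC array 1, CDP array 1 or CDP array 2 was left out.

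Most tested genes shared with lymphocytes rose. Most genes that define B and T cells were at or near the lowest value. The exceptions were Cd79b, Ighm, Cd28 and Cd22, which rose in pDC and is given with the Siglecs. Both pDC arrays and both CDP arrays were under 5 for 7 of 10 measured B cell markers and 12 of 13 markers of T and NK cells. Of 11 tested members 9 were higher and 0 lower, with a median of 3.70 log2, and 13 of the 24 measured lay below the filter. Dntt, which adds nucleotides at V(D)J junctions, had 10.23 and 10.57 in pDC and 4.94 and 4.72 in CDP (at least 42.3-fold higher, adjusted p = 0.00014), and 2.89 and 4.30 in cDC. Il7r, the interleukin-7 receptor chain, had 13.09 and 13.05 in pDC and 5.17 and 5.12 in CDP (243-fold higher), and 9.46 and 9.48 in cDC. Blnk, an adaptor of the B cell receptor, had 12.04 and 11.84 in pDC and 4.03 and 2.66 in CDP (at least 123-fold higher). Every pDC array of these 3 genes lay above every CDP and cDC array.

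Blk, a Src kinase of B cells, had 5.21 and 6.69 in pDC and 2.25 and 2.25 in CDP (at least 1.93-fold higher), with pDC array 1 near the low range. Cd7, a surface receptor of early T and NK cells, had 10.94 and 11.50 in pDC and 6.76 and 3.52 in CDP (at least 40.4-fold higher), and Notch1, the receptor that starts the T cell programme, had 10.56 and 10.72 in pDC and 8.39 and 8.14 in CDP (5.2-fold higher). Notch1 was also higher than in cDC, by 4.01 log2 (adjusted p = 0.00078). Rag1, the recombinase, had 4.43 and 3.88 in pDC and 2.25 and 2.25 in CDP and lay below the filter, and Ptcra, the pre-T cell receptor chain, had 4.77 and 2.90 in pDC and 2.25 and 2.25 in CDP. Rag2, Pax5, Ebf1, Cd79a, Vpreb1, Cd3e, Cd3g and Gata3, which define B and T cells, stood at 2.25 on both pDC and both CDP arrays. Ighm was high in both cells, with 11.91 and 12.06 in pDC and 11.86 and 11.75 in CDP, and Cd79b had 7.45 and 8.24 in pDC and 8.89 and 8.44 in CDP. Ccnd3 was 1.57-fold higher, a call that ended when pDC array 2, CDP array 1 or CDP array 2 was left out.

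Most genes of antigen presentation on MHC class II were higher in pDC than in CDP. Of 16 members 12 were higher and 1 lower, with a median of 2.13 log2, and 8 were lower than in cDC. H2-Eb1, a class II beta chain, had 11.11 and 11.25 in pDC and 6.82 and 4.49 in CDP (at least 38.6-fold higher, adjusted p = 0.00061), and 14.49 and 14.36 in cDC. H2-Ab1 was at least 33.2-fold higher, H2-Aa 29.4-fold higher and the invariant chain Cd74 22.6-fold higher. In each of these the pDC arrays lay between the CDP and the cDC arrays, and CDP array 1 was the higher of the CDP arrays by more than 1 log2 unit, as in 11 of the 16 members. Ciita, the coactivator that switches on class II genes, had 3.67 and 4.84 in pDC and 3.04 and 2.63 in CDP and 9.48 and 9.21 in cDC, so it was low in both pDC and CDP, and its call ended without pDC array 2 or CDP array 2. Marchf1, the ligase that removes class II from the surface, was at least 12.2-fold higher, and H2-DMa and H2-Oa, which edit peptide loading, were 10.3-fold and 8.9-fold higher. Lgmn, a lysosomal protease, had 8.22 and 8.59 in pDC and 10.07 and 8.95 in CDP and was the 1 lower member, a call that ended when either pDC array or CDP array 1 was left out.

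Of 16 genes of MHC class I presentation 4 were higher and 1 lower (25% and 6.25%, against 21.7% and 31.6% of all genes tested). Tapbp (tapasin), which loads peptide on class I, had 12.80 and 12.36 in pDC and 10.44 and 10.15 in CDP (4.87-fold higher), and its relative Tapbpl was 2.48-fold higher. Erap1, the peptide-trimming protease, had 8.33 and 8.12 in pDC and 9.77 and 9.84 in CDP (3-fold lower). H2-K1 had 12.60 and 11.54 in pDC and 11.38 and 10.47 in CDP and B2m had 14.92 and 14.05 in pDC and 14.28 and 13.55 in CDP, and neither passed. H2-D1 and Psme1 were 2.22-fold and 2.04-fold higher. The number higher was 1 without pDC array 1, 8 without CDP array 1 and 2 without CDP array 2, and the number lower was 2 without CDP array 1. The calls for Tapbpl and H2-D1 ended without pDC array 1 or CDP array 2, and that for Psme1 without pDC array 1.

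Lysosomal genes rose in 16 of 29 tested members and fell in 5, with a median of 0.77 log2. These were 55.2% and 17.2%, against 21.7% and 31.6% of all genes tested. Npc1, which exports cholesterol from lysosomes, had 11.10 and 11.41 in pDC and 7.28 and 6.47 in CDP (20.9-fold higher, adjusted p = 0.00047). Ctsl (cathepsin L), a lysosomal protease, had 14.34 and 13.84 in pDC and 10.60 and 9.99 in CDP (13.9-fold higher). Ctsb (cathepsin B) had 13.94 and 14.03 in pDC and 11.31 and 10.59 in CDP (8.19-fold higher). For these 3 genes every cDC array was below both pDC arrays, at 7.79 and 8.28 for Npc1, 9.06 and 9.63 for Ctsl and 11.53 and 11.95 for Ctsb. Psap, the precursor of the saposins, and Ctsh were 6.46-fold and 7.27-fold higher, and Cybb, the catalytic subunit of the phagocyte oxidase, was 3.61-fold higher. Gla, a lysosomal galactosidase, had 3.89 and 5.52 in pDC and 8.02 and 7.80 in CDP (at least 6.29-fold lower, with -3.21 to -0.41 log2 over 2 probe sets), and Ncf4, a regulatory subunit of the oxidase, had 7.09 and 7.29 in pDC and 10.19 and 9.61 in CDP (6.55-fold lower). Without a filter on low values the numbers were 10 higher and 3 lower.

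Genes that mark conventional dendritic cells were split against CDP and mostly lower than in cDC. Of 22 tested members 8 were higher and 4 lower than in CDP (36.4% and 18.2%, against 21.7% and 31.6% of all genes tested), with a median of 0.01 log2. Compared with cDC, 17 were lower and 0 higher, while 12.8% of all genes tested were lower and 12.7% higher. Itgax (CD11c), an integrin chain of dendritic cells, had 11.07 and 11.28 in pDC and 6.35 and 4.32 in CDP (at least 45.2-fold higher), and 10.55 and 10.40 in cDC. Cadm1, an adhesion molecule, had 9.31 and 11.50 in pDC and 4.32 and 3.55 in CDP (at least 42.4-fold higher). Nfil3, a factor upstream of one branch of cDC, had 2.58 and 3.04 in pDC and 7.0 and 7.22 in CDP (at least 4.32-fold lower). Batf3 had 2.90 and 2.69 in pDC and 3.46 and 3.04 in CDP, Relb had 4.00 and 3.65 in pDC and 5.35 and 3.83 in CDP and Zbtb46, a factor of the cDC lineage, had 3.89 and 3.91 in pDC and 3.89 and 3.89 in CDP, and none of the 3 passed against CDP. In cDC, Batf3 had 6.31 and 6.66, Relb had 8.73 and 7.22 and Zbtb46 had 7.84 and 8.48.

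Irf4 had 5.41 and 6.45 in pDC and 3.71 and 3.14 in CDP (at least 1.9-fold higher, adjusted p = 0.0016), and 8.83 and 8.31 in cDC. Its call ended when values under 5 were raised to 5 before the fit (adjusted p = 0.057). Itgae (CD103), Sirpa and Cd209a were at least 3-fold, 3.94-fold and at least 2-fold higher, and Ly75 and Cd24a were called lower, with 2.94 and 2.96 in pDC and 4.65 and 5.25 in CDP for Ly75 and 12.93 and 13.31 in pDC and 14.06 and 14.41 in CDP for Cd24a. The Cd24a call ended without pDC array 1 or CDP array 2, and the count of lower members was 2 without pDC array 1. Notch2 rose by 0.53 ± 0.17 log2 (SE, adjusted p = 0.04), a call that ended when any 1 of the 4 arrays was left out. Xcr1 was at 2.25 and 2.25 in pDC and 2.25 and 2.25 in CDP, against 7.0 and 7.18 in cDC.

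Few maturation and costimulation genes were called against CDP, with 3 higher and 1 lower of 18, but 15 lower than in cDC. The shares against CDP were 16.7% and 5.56%, against 21.7% and 31.6% of all genes tested. Cd86, a ligand for CD28, had 6.80 and 5.21 in pDC and 9.41 and 7.48 in CDP (5.41-fold lower), and 10.75 and 10.03 in cDC. Its call ended without pDC array 2 or CDP array 1. Tnfaip3 (A20), which restrains NF-kappaB, had 8.68 and 8.39 in pDC and 6.77 and 6.44 in CDP (3.8-fold higher). Fscn1 (fascin), which bundles actin in mature dendritic cells, had 6.38 and 5.01 in pDC and 3.94 and 2.61 in CDP (at least 1.61-fold higher) and 13.53 and 12.15 in cDC. The Fscn1 call ended without pDC array 1 or CDP array 2, and the numbers higher and lower were 1 and 4 without CDP array 2. The number lower was 0 without pDC array 2 and 0 without CDP array 1. Cd83 had 2.66 and 4.81 in pDC and 3.05 and 2.82 in CDP and 12.30 and 11.86 in cDC, and Il12b and Ccl22 lay at the lowest value in pDC and CDP.

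Receptor chains for interleukin-7 and interleukin-10 rose, and those for M-CSF, G-CSF and interleukin-1 fell. Of 27 tested members 12 were higher and 6 lower (44.4% and 22.2%, against 21.7% and 31.6% of all genes tested). The numbers were 7 and 2 without a filter on low values. Il10ra, a chain of the interleukin-10 receptor, had 8.94 and 9.36 in pDC and 5.34 and 4.97 in CDP (at least 15.8-fold higher), and its partner Il10rb was 4.98-fold higher. Csf2rb2, a beta chain of the mouse interleukin-3 receptor, had 12.16 and 11.79 in pDC and 8.86 and 9.35 in CDP (7.3-fold higher), and its relative Csf2rb, at 11.99 and 11.80 in pDC and 11.09 and 11.64 in CDP, did not pass (adjusted p = 0.085). Probe sets of these near-identical genes may share signal. Lifr, the receptor for leukemia inhibitory factor, had 11.93 and 12.06 in pDC and 8.92 and 8.69 in CDP (9.14-fold higher). The chains Tgfbr1 and Igf1r were 3.64-fold and 5.4-fold higher, and the Igf1r call ended without pDC array 2.

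Csf1r, the receptor for the macrophage growth factor M-CSF, had 7.63 and 10.48 in pDC and 12.70 and 12.41 in CDP (11.4-fold lower, adjusted p = 0.011), with pDC array 2, on which monocyte genes lay higher, nearer to CDP. The Csf1r call ended without a filter on low values (adjusted p = 0.093) and in a fit of the 4 pDC and CDP arrays alone (adjusted p = 0.051). Il1r1 had 4.39 and 4.34 in pDC and 6.97 and 7.27 in CDP (at least 4.35-fold lower), and Csf3r, the G-CSF receptor, was 3.22-fold lower. Flt3, the receptor whose ligand drives dendritic cell growth, had 10.03 and 10.74 in pDC and 9.59 and 9.60 in CDP, a small rise of 0.79 ± 0.26 log2 (SE, adjusted p = 0.04) that ended without pDC array 2, CDP array 1 or CDP array 2. Kit, the stem cell factor receptor, had 5.75 and 6.17 in pDC and 4.75 and 5.32 in CDP, a rise of 0.92 ± 0.27 log2 (SE, adjusted p = 0.023) that ended without pDC array 2 or CDP array 1, and 11.31 and 10.89 in cDC. For Flt3 and Kit both pDC arrays were above both CDP arrays, and both calls also ended under those 2 settings. Of the receptors that define CDP, Flt3 and Csf1r were thus high on both CDP arrays and Kit was near 5. Ifngr2 was called lower, a call that ended when either pDC array or CDP array 1 was left out, and so was Il13ra1, a call that ended when pDC array 1, CDP array 1 or CDP array 2 was left out. Il4ra was 2.08-fold lower, a call that ended without pDC array 2 or CDP array 2.

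Chemokine receptors and adhesion molecules changed in both directions, 12 higher and 4 lower of 23 (52.2% and 17.4%, against 21.7% and 31.6% of all genes tested). Cxcr3, the receptor for interferon-induced chemokines, had 10.37 and 10.16 in pDC and 4.06 and 2.68 in CDP (at least 38.4-fold higher, adjusted p = 0.00013), and 7.48 and 8.87 in cDC. S1pr4, a sphingosine phosphate receptor of lymphoid cells, had 8.52 and 8.39 in pDC and 5.18 and 4.78 in CDP (at least 10.3-fold higher), and Itgal, the LFA-1 alpha chain, was 4.47-fold higher, with its partner Itgb2 3.5-fold higher. Selplg, the ligand of P-selectin, was 5.09-fold higher, and Ccr6 had 5.99 and 5.73 in pDC and 4.00 and 2.79 in CDP (at least 1.81-fold higher). Cxcr4, which retains cells in marrow, had 9.0 and 9.76 in pDC and 10.76 and 10.68 in CDP (2.52-fold lower). Itga6, a laminin receptor chain, had 5.42 and 6.13 in pDC and 9.20 and 9.70 in CDP (12.8-fold lower), and Cx3cr1, the fractalkine receptor, had 5.93 and 6.73 in pDC and 8.89 and 8.31 in CDP (4.84-fold lower). For the last 3, no pDC array reached a CDP array. Ccr2 rose by 0.96 ± 0.24 log2 (SE, adjusted p = 0.014), a call that ended without pDC array 2 or CDP array 2, with 0.19 to 1.02 log2 over 4 probe sets.

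Granule genes of neutrophil precursors fell in pDC. Of 21 tested members 12 were lower and 0 higher, with a median of -4.31 log2, and 7 are among the lost genes. The shares were 57.1% lower and 0% higher, against 31.6% and 21.7% of all genes tested. They were about as low in cDC: 2 were lower and 0 higher in pDC than in cDC, with a median of -0.08 log2. Ctsg (cathepsin G), a protease of primary granules, had 2.83 and 2.53 in pDC and 13.64 and 12.92 in CDP (at least 311-fold lower, adjusted p = 4.1e-06), 15.01 and 15.02 in MPP and 12.83 and 12.84 in in vivo CDP. Prtn3 (proteinase 3) had 7.70 and 7.37 in pDC and 13.77 and 13.42 in CDP (66.8-fold lower), Mpo (myeloperoxidase) had 2.55 and 2.80 in pDC and 8.60 and 8.60 in CDP (at least 12.2-fold lower), and Ms4a3, a membrane protein of granulocyte-monocyte progenitors, had 2.67 and 2.60 in pDC and 10.22 and 11.22 in CDP (at least 52.6-fold lower). No pDC array came near a CDP array for these. In cDC, Ctsg had 2.83 and 3.18, Prtn3 7.52 and 7.50, Mpo 2.70 and 2.80 and Ms4a3 2.67 and 2.60. Gfi1, the repressor that drives neutrophil fate, had 2.25 and 2.76 in pDC and 5.94 and 6.38 in CDP (at least 2.23-fold lower). Hp (haptoglobin) was at least 61.7-fold lower. S100a8, a calcium-binding protein of neutrophils, had 2.33 and 2.48 in pDC and 10.04 and 7.42 in CDP (at least 13.3-fold lower), and S100a9 was at least 12.5-fold lower. CDP array 1 was the higher CDP array for both. Elane, of primary granules, and Ltf and Camp, of specific granules, were under 5 on all 4 arrays. Cebpa, the factor that starts the myeloid programme, had 4.35 and 5.87 in pDC and 6.09 and 5.59 in CDP and did not pass (adjusted p = 0.23).

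Others of the 10 largest decreases lay outside that list. Serpinb1a, an inhibitor of neutrophil proteases, had 5.23 and 5.09 in pDC and 11.79 and 12.09 in CDP (110.0-fold lower). Ifitm1 had 7.44 and 8.12 in pDC and 13.92 and 13.79 in CDP (67.7-fold lower), and B3gnt5, a glycolipid transferase, had 4.06 and 4.43 in pDC and 10.80 and 10.65 in CDP (at least 53-fold lower). Atp8b4, a phospholipid flippase, had 5.01 and 5.24 in pDC and 11.27 and 10.71 in CDP (58.2-fold lower). B3gnt5 is also the largest of the lost genes that stayed at or above 7 in cDC, where it had 8.07 and 8.24. The others of this kind were Anxa3 (at least 40.6-fold lower), the tetraspanin Cd81 (at least 38.4-fold lower), the chemokine Ccl3 (at least 37.2-fold lower), Olfm1 (at least 20.3-fold lower) and Svip, an inhibitor of protein degradation at the endoplasmic reticulum (at least 17-fold lower). Cd81 had 3.59 and 3.62 in pDC and 10.33 and 10.19 in CDP and 7.22 and 8.04 in cDC, and Ccl3 had 3.23 and 3.75 in pDC and 11.40 and 9.04 in CDP and 9.02 and 8.79 in cDC.

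**Figure D5:**
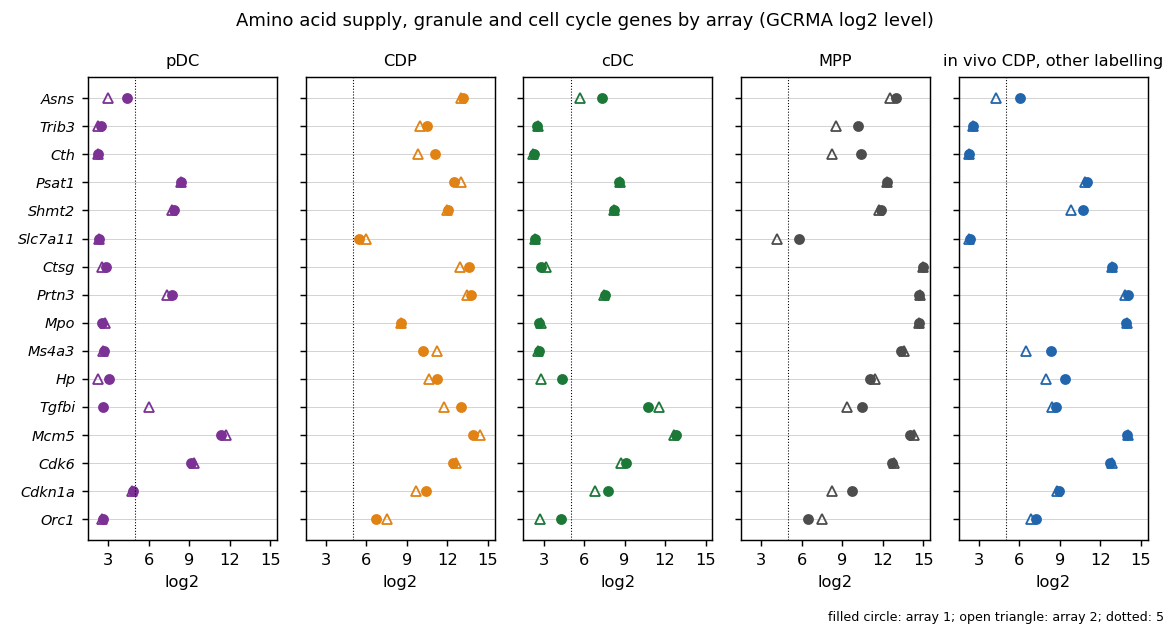
GCRMA log2 level of amino acid supply, granule and cell cycle genes on each array of pDC, CDP, cDC, MPP and in vivo CDP, the last from another labelling kit (filled circle array 1, open triangle array 2, dotted line at 5). Asns lies at 4.40 and 3.0 in pDC and 13.16 and 12.98 in CDP, and at 6.07 and 4.26 in in vivo CDP.

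Of 17 tested monocyte and macrophage genes 6 were lower and 4 higher. The shares higher and lower were 23.5% and 35.3%, near the 21.7% and 31.6% of all genes tested. The numbers lower and higher were 4 and 5 without pDC array 1, 9 and 1 without pDC array 2, 4 and 3 without CDP array 1, and 7 and 2 without CDP array 2. The median level of the 24 measured members was 3.55 and 6.86 on the pDC arrays and 7.01 and 5.17 on the CDP arrays. In bulk samples such as these, fewer cells of a type and less RNA per cell cannot be told apart. Tgfbi, a secreted matrix protein, had 2.59 and 6.05 in pDC and 12.99 and 11.74 in CDP (at least 115-fold lower, adjusted p = 0.00094), and Cd14, the LPS co-receptor, had 6.94 and 7.91 in pDC and 10.99 and 10.15 in CDP (8.84-fold lower). Lyz2 (lysozyme) had 7.13 and 11.94 in pDC and 13.13 and 10.48 in CDP, with CDP array 2 between the pDC arrays, and did not pass. C1qb had 4.30 and 9.45 in pDC and 2.39 and 2.39 in CDP, and its call ended when pDC array 2, CDP array 1 or CDP array 2 was left out. Cd68, a lysosomal glycoprotein that pDC also express, had 10.96 and 10.93 in pDC and 9.62 and 8.64 in CDP (3.52-fold higher). Mertk, Trem2 and C1qa, which mark mature macrophages, were under 5 on both pDC arrays. Other macrophage genes, C1qb and Adgre1 among them, were above 5 on pDC array 2. On that array 12 of the 17 tested members were higher than on pDC array 1 by at least 1 log2 unit.

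Lectins, Siglecs and Fc receptors moved in both directions, 13 higher and 6 lower of 29 (44.8% and 20.7%, against 21.7% and 31.6% of all genes tested). Clec4e (Mincle), which binds mycobacterial glycolipid, had 2.29 and 4.10 in pDC and 10.19 and 9.29 in CDP (at least 26.7-fold lower), and Clec5a, a lectin that signals through Tyrobp, had 2.76 and 2.25 in pDC and 9.74 and 8.33 in CDP (at least 16.4-fold lower). Clec7a (Dectin-1), the receptor for fungal glucan, had 3.05 and 6.13 in pDC and 9.76 and 9.18 in CDP (at least 15-fold lower), with pDC array 2 the higher. Tyrobp (DAP12), the adaptor through which Siglec-H signals, had 14.54 and 14.53 in pDC and 12.61 and 11.88 in CDP (4.88-fold higher). Cd22 and Siglecg, sialic acid-binding receptors of B cells, were 16.7-fold and at least 6.34-fold higher, Klrd1 (CD94) 22.8-fold higher and Pirb, an inhibitory receptor for MHC class I, 9.27-fold higher. Fcgr2b, the inhibitory Fc receptor, had 10.38 and 10.54 in pDC and 12.57 and 12.40 in CDP (4.07-fold lower). Without a filter on low values 3 members were lower.

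Stem and progenitor genes fell in 9 of 19 tested members and rose in 2, with a median of -0.89 log2. These were 47.4% and 10.5%, against 31.6% and 21.7% of all genes tested. Cd34, a sialomucin of progenitors, had 2.74 and 2.37 in pDC and 9.17 and 9.16 in CDP (at least 17.9-fold lower, adjusted p = 3.3e-05), and 6.10 and 7.25 in cDC. Hoxa9, a homeobox factor of progenitors, had 8.45 and 9.23 in pDC and 11.60 and 11.59 in CDP (6.74-fold lower), and 4.64 and 5.82 in cDC, with the pDC arrays between those of CDP and cDC. Erg, Tal1 and Egfl7 were at least 3.36-fold, at least 2.22-fold and at least 7.3-fold lower. Myb, a factor of immature blood cells, had 11.61 and 11.75 in pDC and 11.89 and 12.06 in CDP and did not pass (adjusted p = 0.2), against 8.35 and 8.10 in cDC. Sox4 was 2.82-fold lower. The 2 higher members were Kit and Cd48, and Cd48 rose by 0.88 ± 0.21 log2 (SE, adjusted p = 0.012), a call that ended without pDC array 2 or CDP array 2, so that 0 were higher without pDC array 2.

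Genes of DNA replication fell together. Of 38 members 35 were lower in pDC and 0 higher, with a median of -2.55 log2, and 22 were lower than in cDC as well. Cdt1, which licenses replication origins, had 9.20 and 9.73 in pDC and 12.90 and 13.23 in CDP (12.1-fold lower, adjusted p = 5.3e-05), and Gins1, a part of the replicative helicase, had 7.65 and 7.30 in pDC and 11.11 and 11.06 in CDP (12.2-fold lower). Orc1, of the origin recognition complex, had 2.63 and 2.55 in pDC and 6.75 and 7.53 in CDP (at least 4.41-fold lower). The 6 subunits of the MCM helicase, Mcm2 to Mcm7, all fell. Mcm5 had 11.38 and 11.70 in pDC and 13.87 and 14.44 in CDP (6.13-fold lower), and Mcm6 had 11.17 and 11.23 in pDC and 12.72 and 13.07 in CDP (3.24-fold lower). Pcna, the sliding clamp, had 13.12 and 13.08 in pDC and 14.30 and 14.32 in CDP (2.31-fold lower), so it remained high in pDC. Pold1, Rfc1 and Tyms did not pass.

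The promoters of Mcm5 and Mcm6 are shown because both genes fell and both windows hold the E2F site TTTCGCGC. They are the 250 bases before the RefSeq start site (GRCm38.p6), of Mcm5 at chr8:75109259-75109508 (plus strand) and of Mcm6 at chr1:128359706-128359955 (minus strand), with the site on either strand in capitals.
Mcm5: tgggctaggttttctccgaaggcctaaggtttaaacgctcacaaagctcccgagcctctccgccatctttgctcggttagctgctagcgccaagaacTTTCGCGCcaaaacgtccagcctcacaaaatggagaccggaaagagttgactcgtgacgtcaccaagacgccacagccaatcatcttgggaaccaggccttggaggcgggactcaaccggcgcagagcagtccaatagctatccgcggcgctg
Mcm6: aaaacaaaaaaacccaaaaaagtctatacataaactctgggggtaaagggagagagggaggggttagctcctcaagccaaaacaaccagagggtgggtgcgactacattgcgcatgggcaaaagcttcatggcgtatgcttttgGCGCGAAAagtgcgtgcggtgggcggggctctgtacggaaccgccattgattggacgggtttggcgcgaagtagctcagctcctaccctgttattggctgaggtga
The site lay 153 to 146 bases before the start of Mcm5 and 106 to 99 bases before that of Mcm6. It occurred on either strand of the window of 300 bases in 8 of the 32 measured list members with a promoter in the table (25.0%), against 0.374% of all 27025 genes. The 8 were Dnmt1, Lig1, Mcm5, Mcm6, Mcm7, Orc1, Rfc3 and Uhrf1, and all of them fell. As 35 of the 38 tested members of the list fell (92.1%), this tells nothing of the site. A match in the letters is not a binding site, and its part in the fall was not tested.

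Mitotic genes fell as well, with 34 of 35 lower and 0 higher, and a median of -2.01 log2. Kif20a, a kinesin of cell division, had 7.07 and 7.82 in pDC and 10.65 and 10.31 in CDP (8.19-fold lower), and Aurka, the spindle kinase, had 6.29 and 7.04 in pDC and 9.41 and 9.42 in CDP (6.71-fold lower). Mki67, the proliferation antigen, had 11.19 and 11.80 in pDC and 12.95 and 13.07 in CDP (2.86-fold lower). Mki67, Top2a and Cdk1 were above 8 on all 4 arrays. Kif23 did not pass.

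The regulators that set cell cycle entry moved in both directions, 6 higher and 9 lower of 20. These were 30% and 45%, against 21.7% and 31.6% of all genes tested. Cdk6, a kinase of early G1, had 9.16 and 9.34 in pDC and 12.41 and 12.65 in CDP (9.71-fold lower, adjusted p = 5.1e-05), and 9.15 and 8.76 in cDC. Its partner Ccnd1 (cyclin D1) had 13.46 and 13.37 in pDC and 10.74 and 10.11 in CDP and was 7.92-fold higher. Cdkn1a (p21), an inhibitor of these kinases, had 4.83 and 4.73 in pDC and 10.39 and 9.67 in CDP (at least 32.6-fold lower), while Cdkn1b (p27) had 11.64 and 11.98 in pDC and 10.42 and 10.46 in CDP (2.59-fold higher). Btg2, an antiproliferative gene, had 10.85 and 11.29 in pDC and 7.07 and 4.51 in CDP (at least 32.8-fold higher), and Btg1 was 3.81-fold higher. E2f2 and Ccne2 were 8.29-fold and 6.4-fold lower.

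Myc, which drives growth and ribosome production, had 3.42 and 3.44 in pDC and 8.39 and 7.83 in CDP (at least 8.62-fold lower, adjusted p = 7.1e-05), 11.13 and 10.33 in MPP and 9.51 and 9.14 in cDC. Both cDC arrays were above both CDP arrays, and both pDC arrays were near the lowest range. Ribosome biogenesis genes also fell in pDC: of 34 members of that list 27 were lower and 1 higher, with a median of -1.58 log2. Compared with cDC, 7 of the 34 were lower and 0 higher in pDC, with a median of -0.27 log2. The part of Myc in these differences was not tested. Wdr12, which matures the large ribosomal subunit, had 5.82 and 6.53 in pDC and 10.32 and 10.20 in CDP (16.9-fold lower), and Rrp1b, a nucleolar protein, had 5.67 and 6.23 in pDC and 8.78 and 9.60 in CDP (9.45-fold lower). The RNA polymerase I subunits Polr1a and Polr1b were at least 5.95-fold and at least 8.25-fold lower. Mxd4, of the MAX dimerisation proteins that oppose MYC, had 9.26 and 8.92 in pDC and 7.03 and 5.67 in CDP and was the 1 higher member (6.66-fold higher).

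Genes that make, import and charge amino acids fell. Of 37 tested members 32 were lower and 1 higher, with a median of -2.41 log2. Compared with cDC, 5 were higher in pDC and 6 lower, with a median of -0.07 log2. Cells short of amino acids raise many of these genes through the factor Atf4. Asns (asparagine synthetase) had 4.40 and 3.0 in pDC and 13.16 and 12.98 in CDP, at least 269-fold lower (adjusted p = 5.9e-05), with 13.01 and 12.54 in MPP and 7.35 and 5.74 in cDC. Trib3, a pseudokinase induced by Atf4, had 2.46 and 2.25 in pDC and 10.53 and 9.998 in CDP (at least 38.4-fold lower), and Cth, which makes cysteine, had 2.25 and 2.25 in pDC and 11.07 and 9.82 in CDP (at least 43.5-fold lower). Both pDC arrays were under 5 for these 3 genes, and both CDP arrays were above 9. In cDC, Trib3 had 2.55 and 2.61 and Cth 2.28 and 2.25.

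Asns and Slc7a11 are shown because both fell and their promoters hold the amino acid response element core TGATGNAAN. The sequences are the 250 bases before the RefSeq start site (GRCm38.p6), of Asns at chr6:7693210-7693459 (minus strand) and of Slc7a11 at chr3:50443614-50443863 (minus strand), with the core on either strand in capitals.
Asns: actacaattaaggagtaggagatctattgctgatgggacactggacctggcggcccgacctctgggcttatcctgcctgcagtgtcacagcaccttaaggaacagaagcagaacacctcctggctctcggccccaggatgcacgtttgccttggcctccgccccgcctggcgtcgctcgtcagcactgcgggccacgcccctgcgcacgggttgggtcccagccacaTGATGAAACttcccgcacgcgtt
Slc7a11: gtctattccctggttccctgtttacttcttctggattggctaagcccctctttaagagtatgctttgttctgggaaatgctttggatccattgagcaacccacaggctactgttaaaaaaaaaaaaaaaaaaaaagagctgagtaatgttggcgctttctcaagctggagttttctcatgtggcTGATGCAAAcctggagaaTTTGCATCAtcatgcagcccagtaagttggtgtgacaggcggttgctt
The core lay 23 to 15 bases before the start of Asns, and 66 to 58 and 48 to 40 bases before that of Slc7a11. It occurred on either strand of the window of 300 bases in 10 of the 29 measured list members with a promoter in the table (34.5%), against 4.5% of all 27025 genes. Of the 10, Aars, Asns, Gars, Iars, Slc1a4, Slc7a11, Tars, Trib3 and Yars fell, and Chac1 lay below the filter. As 32 of the 37 tested members of the list fell (86.5%), this tells nothing of the core. A match in the letters is not a binding site, and its part in the fall was not tested. Matches of different motifs overlapped in 9 promoters of the whole table.

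Enzymes of serine and one-carbon metabolism were part of this fall. Psat1, the aminotransferase of serine synthesis, had 8.37 and 8.42 in pDC and 12.52 and 13.05 in CDP (20.9-fold lower). Shmt2, which passes a one-carbon unit from serine to folate in mitochondria, had 7.89 and 7.77 in pDC and 12.08 and 11.98 in CDP (18.5-fold lower). Phgdh, the entry enzyme of serine synthesis, had 9.30 and 9.53 in pDC and 12.38 and 12.50 in CDP (8.13-fold lower), and was higher in pDC than in cDC, by 2.32 log2 (adjusted p = 0.00044). Among transporters, Slc7a11, which imports cystine, had 2.33 and 2.33 in pDC and 5.45 and 5.98 in CDP (at least 1.64-fold lower), and Slc7a5, which imports large neutral amino acids, was 5.88-fold lower. The tRNA synthetases Gars, Iars and Yars were 6.78-fold, 5.32-fold and 5.6-fold lower, whereas Wars and Vars did not pass. Atf4 itself had 10.57 and 10.71 in pDC and 11.32 and 11.13 in CDP, a difference of -0.58 ± 0.20 log2 (SE, adjusted p = 0.047) that ended when any 1 of the 4 arrays was left out. Slc38a1, a glutamine transporter, was the 1 higher member at 1.56-fold higher, a call that ended when either pDC array or CDP array 1 was left out.

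In vivo CDP gave other levels for several of these genes, across a difference in kit and input that cannot be told apart from culture. Asns had 6.07 and 4.26 in in vivo CDP, Trib3 2.55 and 2.54 and Cth 2.28 and 2.26. For Trib3 and Cth those values lie under 5, as in pDC, and far below cultured CDP. Psat1 had 11.02 and 10.83 in in vivo CDP and Shmt2 10.74 and 9.84.

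Several sterol synthesis genes were higher in pDC, and 11 were higher than in cDC. Against CDP 11 of 25 members were higher and 1 lower (44% and 4%, against 21.7% and 31.6% of all genes tested), with a median of 0.94 log2. The number higher was 4 without pDC array 1, 8 without pDC array 2, 4 without CDP array 1 and 13 without CDP array 2, and the number lower was 3 without CDP array 1. Without a filter on low values 4 were higher. Hmgcs1, the synthase at the entry of the pathway, had 13.52 and 13.22 in pDC and 10.91 and 11.54 in CDP (4.42-fold higher, adjusted p = 0.00061), and Sc5d, a late desaturase, had 11.04 and 10.84 in pDC and 8.51 and 8.80 in CDP (4.87-fold higher). Msmo1 and Insig1 were 4.27-fold and 3.27-fold higher. The sterol regulatory element TCACNCCAC, searched in the same way, occurred in 1 of 19 measured members with a promoter in the table (5.26%), Hmgcs1, against 1.44% of all genes. CDP array 2 was higher than CDP array 1 by at least 1 log2 unit in 12 of the 25 members. Sqle, the squalene epoxidase, had 10.88 and 10.59 in pDC and 8.68 and 9.66 in CDP (2.96-fold higher). The call for Sqle ended without pDC array 1 or CDP array 1, and the higher calls for Idi1 and Fdft1 ended when either pDC array or CDP array 1 was left out. Scd1, a fatty acid desaturase, had 3.79 and 3.81 in pDC and 8.06 and 9.51 in CDP (at least 13.8-fold lower).

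Of 19 glycolysis genes 3 were higher and 3 lower (15.8% and 15.8%, against 21.7% and 31.6% of all genes tested). More were lower without pDC array 2, on which most of them were higher than on pDC array 1. Slc2a3, a glucose transporter, had 10.42 and 11.33 in pDC and 8.69 and 7.79 in CDP (6.22-fold higher), and Pfkfb4 was 3.08-fold higher. Slc16a1, a lactate transporter, had 5.72 and 7.10 in pDC and 11.50 and 11.42 in CDP (33-fold lower), and Hk3, a hexokinase of myeloid cells, had 3.14 and 4.07 in pDC and 8.01 and 7.24 in CDP (at least 6.16-fold lower). Pkm, pyruvate kinase, had 10.22 and 12.01 in pDC and 10.97 and 11.08 in CDP, with the CDP arrays between the pDC arrays.

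Protein folding and secretion genes were mostly without a call against CDP, though 13 of 34 were higher than in cDC and 0 lower. Against CDP 9 were higher and 2 lower (26.5% and 5.88%, against 21.7% and 31.6% of all genes tested). The number lower was 1 without pDC array 1 and 0 without pDC array 2. Hsp90b1 (GRP94), the chaperone of Toll-like receptors, had 14.11 and 14.18 in pDC and 13.05 and 13.06 in CDP (2.13-fold higher), and Edem2, of the degradation pathway for misfolded glycoproteins, was 3.08-fold higher. Ern1 (IRE1), the sensor that splices Xbp1 mRNA, had 10.14 and 9.97 in pDC and 9.03 and 8.69 in CDP (2.29-fold higher, with -0.17 to 1.35 log2 over 3 probe sets), and Sec24d, of the transport coat, had 10.28 and 9.61 in pDC and 8.77 and 8.24 in CDP (2.73-fold higher). Both genes were also higher than in cDC, by 1.45 log2 (adjusted p = 0.0026) and 3.20 log2 (adjusted p = 0.00035). Sel1l had 8.71 and 8.58 in pDC and 10.02 and 9.33 in CDP and Kdelr2 had 10.60 and 10.62 in pDC and 11.09 and 11.71 in CDP, and these were the 2 lower members. The Sel1l call ended without pDC array 2 or CDP array 1, and that of Kdelr2 when either pDC array or CDP array 2 was left out.

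Of 17 apoptosis regulators 5 were higher and 5 lower (29.4% and 29.4%, near the 21.7% and 31.6% of all genes tested), with 2 lower without pDC array 1 and 3 without CDP array 1. Bcl2, the survival protein, had 8.55 and 8.76 in pDC and 11.15 and 11.50 in CDP (6.37-fold lower, adjusted p = 0.0001), and Bcl2l11 (BIM), which opposes it, was 2.8-fold lower. Bcl2l2 (BCL-W) had 7.15 and 7.90 in pDC and 5.60 and 5.19 in CDP (4.39-fold higher), and the inhibitor of apoptosis Birc3 had 11.08 and 10.93 in pDC and 9.66 and 9.25 in CDP (2.93-fold higher). Mcl1 was high in both cells, with 13.12 and 13.06 in pDC and 13.03 and 12.44 in CDP.

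Among chromatin regulators 5 of 23 tested members were higher and 11 lower (21.7% and 47.8%, against 21.7% and 31.6% of all genes tested). Hells, a remodeller needed for DNA methylation, had 8.02 and 8.28 in pDC and 11.10 and 11.64 in CDP (9.29-fold lower), and Uhrf1, which brings the methyltransferase Dnmt1 to new DNA, had 7.66 and 8.27 in pDC and 10.31 and 10.82 in CDP (6.06-fold lower). Ezh2, the Polycomb methyltransferase, was 2.45-fold lower, while its relative Ezh1 had 7.77 and 8.39 in pDC and 6.39 and 6.47 in CDP (3.14-fold higher). The number higher was 3 when pDC array 2 or either CDP array was left out, and the call for Kdm5b, 2.67-fold higher, ended in each of these cases. The 2 probe sets of Kdm5b gave -0.33 to 1.42 log2.

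Of 25 tested genes of the TGF-β pathway, the subject of the series, and ID proteins, 4 were higher and 8 lower (16% and 32%, near the 21.7% and 31.6% of all genes tested), with 2 higher without pDC array 1. Tgfbr1, the signalling receptor, had 11.38 and 11.56 in pDC and 10.02 and 9.19 in CDP (3.64-fold higher), and 8.45 and 8.57 in cDC. Acvr2a, an activin receptor, had 8.84 and 8.28 in pDC and 5.60 and 5.85 in CDP (7.11-fold higher), and Tgif1, a repressor of SMAD targets, had 4.70 and 4.46 in pDC and 8.69 and 6.96 in CDP (at least 7.1-fold lower). Bambi, a pseudoreceptor that dampens the signal, had 3.44 and 4.22 in pDC and 7.06 and 6.75 in CDP (at least 3.75-fold lower). Smad2, Smad3, Smad4 and Smad7 did not pass, with differences of -0.32, 0.38, 0.27 and -0.11 log2. Tgfbr2 and Runx1 were 2.22-fold and 1.66-fold higher, and the Tgfbr2 call ended without pDC array 1 or CDP array 2. The Runx1 call ended when either pDC array or CDP array 1 was left out, and its 3 probe sets gave 0.03 to 1.10 log2.

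Markers of other lineages were mostly at or near the lowest value in both cells. Of the erythroid markers 1 of 7 measured passed the filter, and Tfrc, the transferrin receptor that dividing cells also carry, had 13.76 and 14.22 in pDC and 12.11 and 12.39 in CDP (3.33-fold higher). Hba-a1, Klf1 and Gata1, which define the erythroid line, stood at 2.25 on all 4 arrays. Of the megakaryocyte markers 2 of 6 passed: Ppbp had 2.31 and 2.31 in pDC and 6.67 and 5.78 in CDP (at least 2.34-fold lower), and Pf4 had 4.21 and 8.65 in pDC and 7.11 and 7.07 in CDP, with both CDP arrays between the pDC arrays. Of the eosinophil markers, Siglecf had 2.87 and 2.87 in pDC and 6.24 and 5.80 in CDP (at least 2.03-fold lower), and Epx and Prg3 stood at the lowest value. Of the T and NK cell markers, Nkg7 was called lower with both groups under 5, and Cd28 had 11.63 and 11.75 in pDC and 10.99 and 10.89 in CDP without a call, against 6.47 and 8.24 in cDC. Of the 7 tested mast cell and basophil genes, Mcpt8 had 2.25 and 2.76 in pDC and 7.10 and 6.56 in CDP (at least 3.55-fold lower), a call that ended when pDC array 1, CDP array 1 or CDP array 2 was left out, and Cpa3 and Fcer1a were under 5 on all 4 arrays.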

How the data were processed

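Expression was measured on 20 Affymetrix mouse genome arrays. The authors deposited log2 values of 45101 probe sets, made with GCRMA per the submitters' processing notes, a version being not given in the sources used here. Together the 8 one-cycle arrays (pDC, CDP, cDC and MPP, 2 each) and the in vivo CDP arrays share 1 lowest value. Probe sets with 1 gene symbol (34945 of 45101, after 64 controls, 932 with several symbols and 9160 unnamed were left out) were joined through the platform's annotation of 2016, and each of 18193 genes took its probe set of highest mean over the 20 arrays.

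Group means were fitted on the 8 one-cycle arrays by lmFit and eBayes of limma 3.58.1 under R 4.3.3, with neither trend nor robust setting, for genes above 5 on at least 2 of the 8 arrays. The fit was tested on simulated data. Array number limits the precision, with 2 arrays a group. Genes were named by rule: the 10 largest changes each way whose groups do not overlap, after values under 5 were raised to 5; members of 33 gene lists, with at least the largest 2 of each list and direction; a fixed set of regulators and receptors; and the 8 largest gained genes under 5 in cDC and the 6 largest lost genes at or above 7 in cDC. Of 782 listed genes 720 had a value. The members and the lists were chosen with earlier results of these data known. The probe sets of Klk1 and Id2 that disagree with the one used are named as well, chosen after their values were seen. Promoter sequences are those of RefSeq for GRCm38.p6.

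The alternatives were other filters on low values, scalings, choices of probe set, arrays in the fit and limma settings, the array number as a block, and leaving out each array.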

Additional observations from a re-analysis of the deposited data

How the results depend on the processing

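Across 15 alternatives, none of 51 genes reversed, taken from the fixed set, the largest changes and the largest gained and lost genes. Most of them were chosen for large differences, so a reversal was unlikely from the start. Of 749 combinations of gene and alternative, 728 kept their direction and side of the threshold, 18 lost the call and 3 gained it. The lost calls were those of Csf1r, Flt3, Id2, Irf7, Kit and Irf4, and the gained ones those of Cebpa, Csf2rb and Id3, all of them in the fixed set. Of 990 counts of list members, 888 stayed within 1.5 times. Leaving out each array gave 3622 to 4218 called genes for pDC against CDP, 1386 to 1721 higher and 2236 to 2497 lower, 81 to 149 gained and 128 to 164 lost. The 149 gained genes came without CDP array 1. For pDC against cDC, leaving out each array gave 1262 to 1600 called genes, 558 to 752 higher and 637 to 936 lower. Without a filter on low values, when 18193 genes were tested, pDC against cDC gave 1483 called genes, 728 higher and 755 lower. The array numbers do not pair the samples by the labels. Deviations from the group means of same-numbered arrays correlated at -0.06 between pDC and CDP, 0.44 between pDC and cDC and 0.58 between CDP and MPP. The main fit did not include the array number, and what same-numbered arrays share was not tested. With the array number as a replicate block, 4944 genes were called for pDC against CDP (2027 higher, 2917 lower) and 2439 for pDC against cDC (1213 higher, 1226 lower). Levels near the lowest value limit what can be read of Tlr9, Rag1 and other genes under 5.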
